A study of Homo sapiens with 15 samples.

Results

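The loci of TAL1, LMO2 and LYL1, 3 regulators of blood stem and progenitor cells, were examined for the binding of GATA2, RUNX1 and the cohesin subunit SMC3. A peak counted as a member when its summit lay in 1 of 3 windows of the human genome build hg19: chr1:47630000-47750000 for TAL1, chr11:33850000-34050000 for LMO2 and chr19:13190000-13230000 for LYL1. These windows held 89 of the 198298 peaks in the 6 deposited peak lists, with 27 at TAL1, 52 at LMO2 and 10 at LYL1. The windows were set by position and not by any measured value. No annotation of hg19 was used here, so sites are given by position and are not assigned to an exon, an intron, a promoter or a known enhancer. In the order of protein-coding genes in RefSeq (GRCh38.p14), TAL1 lies between PDZK1IP1 and STIL, LMO2 between FBXO3 and CAPRIN1, and LYL1 between NFIX and TRMT1.

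Binding had been measured by chromatin immunoprecipitation and sequencing (ChIP-seq) in the cell line TF-1, human erythroleukemia cells that grow in medium with cytokines. All cells carried a vector for RAD21 and were induced with doxycycline for 6 days: one line expressed the wild-type protein (WT) and the other RAD21 Q592*, which ends at a premature stop codon. RAD21 is another subunit of cohesin. No cells without the vector, or without doxycycline, enter any comparison here. Each line had 2 libraries per target, except that Q592* RUNX1 had 1, and nothing in the labels says that libraries came from separate cultures. Each line also had 2 input libraries, and which of them served as background for each peak list is not stated. Each line and target is represented by 1 pooled peak list, so no replicate spread exists, the lines cannot be tested against each other and every interval below covers counting error only.

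TAL1 and LYL1 are paralogous basic helix-loop-helix proteins that bind DNA at E-boxes as partners of E proteins. LMO2 is a LIM-only protein that does not itself bind DNA; it bridges TAL1 or LYL1, the adaptor LDB1 and a GATA factor into 1 complex. In blood progenitors these proteins share many enhancers with GATA2 and RUNX1, and all 3 genes are known as oncogenes that are switched on aberrantly in T-cell leukemia. GATA2 recognises the letters AGATAA or TGATAA, and RUNX1 the letters TGTGGT or TGCGGT. Cohesin is a ring-shaped complex that holds DNA loops and often rests at CTCF sites as well as at enhancers.

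The promoter letters that RefSeq (GRCh38.p14) gives for the members differ in which of these factors' motifs they hold, and are printed so that the motif matches can be seen. TAL1 and LYL1 matched, with 3 start sites in all. Each line shows the 250 bases before a start site, 5′ to 3′ on the minus strand, which is the coding strand of both genes. Capitals mark the GATA and RUNX letters, searched on both strands.
TAL1 first start, chr1:47232336-47232585: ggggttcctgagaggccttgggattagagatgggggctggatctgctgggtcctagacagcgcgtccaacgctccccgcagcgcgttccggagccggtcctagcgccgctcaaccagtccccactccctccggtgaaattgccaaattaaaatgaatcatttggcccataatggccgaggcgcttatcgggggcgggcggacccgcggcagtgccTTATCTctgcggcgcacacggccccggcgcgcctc
TAL1 second start, chr1:47231716-47231965: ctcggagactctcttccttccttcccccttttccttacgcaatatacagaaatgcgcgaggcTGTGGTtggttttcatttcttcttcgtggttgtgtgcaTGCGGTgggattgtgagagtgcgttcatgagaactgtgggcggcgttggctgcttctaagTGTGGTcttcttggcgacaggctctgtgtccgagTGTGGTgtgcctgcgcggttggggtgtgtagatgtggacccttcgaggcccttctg
LYL1, chr19:13102859-13103108: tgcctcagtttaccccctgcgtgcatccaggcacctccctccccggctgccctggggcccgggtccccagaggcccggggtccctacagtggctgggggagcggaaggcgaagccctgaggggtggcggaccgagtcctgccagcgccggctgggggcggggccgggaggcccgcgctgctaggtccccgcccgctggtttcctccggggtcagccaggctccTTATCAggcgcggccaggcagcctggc
The first TAL1 start and the LYL1 start each had 1 GATA match, 35 and 27 bases before the start, and no RUNX match. The second TAL1 start had 4 RUNX matches and no GATA match. Of the 35116 promoters in that table, 14.6% held a GATA match in the same length, 16.3% a RUNX match and 0.0285% at least 4 RUNX matches. The E-box letters CANNTG occurred once before the first TAL1 start and not in the other sequences, against 61.8% of all promoters. A match is a description of letters and not evidence of binding. These GRCh38 positions were not compared with the hg19 peaks, so no peak is placed on a promoter.

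The 3 loci had different kinds of occupancy. Peaks that overlapped across the lists were joined into sites. TAL1 held 13 sites over 89.6 kb, of which 8 had GATA2 or RUNX1 without SMC3 and 4 had SMC3 alone. LMO2 held 19 sites over 167.9 kb, and its 3 sites called in all 6 lists were the only ones of that kind in the 3 windows. LYL1 held 6 sites over 22.4 kb: 5 with SMC3 alone and 1 with GATA2 alone.

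**Figure D1:**
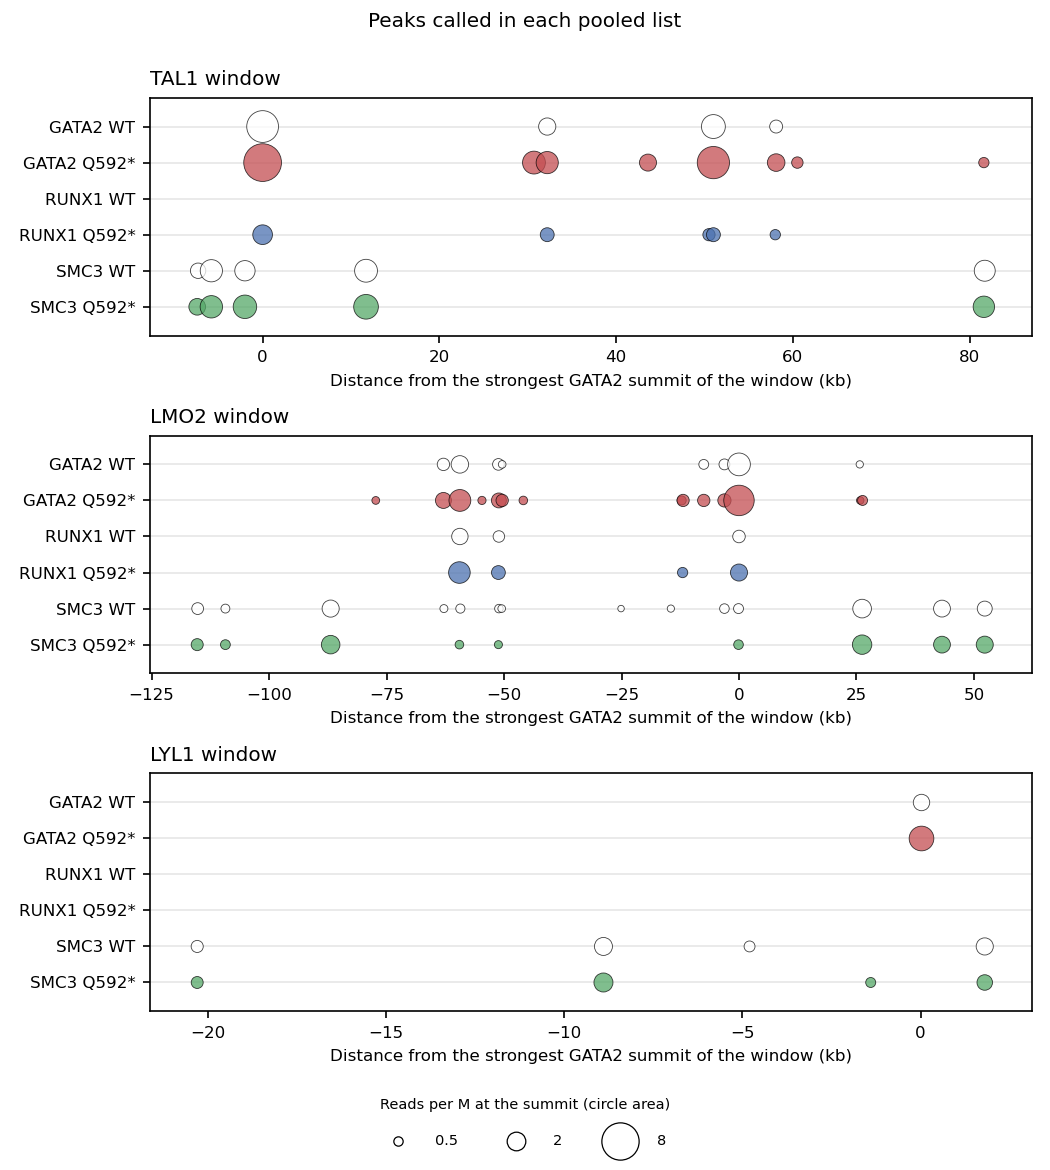
Position of every peak summit in the 3 windows, by list, as the distance in kb from the strongest GATA2 summit of the window. Circle area is proportional to the reads per M (1000000 ChIP reads) at the summit, open circles are WT and filled circles Q592*. At TAL1 the 5 RUNX1 peaks appear only in Q592*, while at LMO2 peaks of GATA2, RUNX1 and SMC3 stack at 3 positions in both lines.

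Peak numbers are read against windows of the same length placed end to end along the genome. At TAL1 the WT lists held 4 GATA2, 0 RUNX1 and 5 SMC3 peaks, and the Q592* lists 8, 5 and 5. Of genome windows of 120 kb, 15.3% held at least 4 WT GATA2 peaks and 7.45% at least 8 Q592* GATA2 peaks, while 1.21% held at least 5 Q592* RUNX1 peaks. The share with at least 5 SMC3 peaks was 9.4% in WT and 4.65% in Q592*. At LMO2 the WT lists held 8 GATA2, 3 RUNX1 and 14 SMC3 peaks and the Q592* lists 14, 4 and 9. The matching shares of windows of 200 kb were 9.22%, 7.12% and 0.879% in WT and 4.66%, 7.96% and 1.62% in Q592*. LYL1 had 1 GATA2 and 4 SMC3 peaks in each line and no RUNX1 peak. At least 1 GATA2 peak was found in 27.2% (WT) and 36.5% (Q592*) of windows of 40 kb, but at least 4 SMC3 peaks in only 1.78% and 0.671%. SMC3 at LMO2 and LYL1, and RUNX1 at TAL1 in Q592*, were therefore the counts furthest from those of other windows of the same length. With a −log10 q of at least 10, LMO2 had 7 WT SMC3 and 8 Q592* GATA2 peaks, and with lists of equal length TAL1 had 3 Q592* RUNX1 peaks. The shares of genome windows were not computed at these settings, so the comparison with other windows holds for the full lists only.

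GATA2 was called at more places in the Q592* list, at about the rate of the whole genome. Peaks of both lines that overlapped by at least 1 bp were joined into regions. Of 23 GATA2 regions, 13 were shared and 10 (43.5%) were called only in Q592*, where the genome-wide shares were 51.9% and 40.1%. None was called only in WT, against 7.96% of all GATA2 regions. The Q592* list is longer, with 59009 peaks against 38962, and with lists of equal length 3 GATA2 regions were called only in Q592* and 1 only in WT. Of 9 RUNX1 regions, 3 were shared and 6 were called only in Q592* (46.0% and 44.4% genome-wide), while 0 were called only in WT (9.59% genome-wide). For SMC3, 17 of 24 regions were shared, 6 were called only in WT and 1 only in Q592*, against 65.6%, 27.6% and 6.84% of all SMC3 regions. At equal length 3 SMC3 regions were called only in WT and 2 only in Q592*, and with a −log10 q of at least 10, 2 were called only in WT. The share of regions called in 1 line only was thus near the genome-wide share for GATA2 and SMC3, and the 9 RUNX1 regions are too few to set apart.

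The strength of a peak is given as the reads at its summit, recovered as whole numbers from the deposited values, and as reads per M (1000000) of the pool's ChIP reads. The pools held 103.5 to 107.53 M ChIP reads in WT and 93.45 to 106.74 M in Q592*. The ratio between the lines is Q592* over WT in reads per M, with an approximate 95% counting interval. GATA2 was higher in Q592* at 98.5% of its 33241 shared regions over the genome, with a median log2 ratio of 0.81, and RUNX1 at 97.4% of 7917, with a median of 0.65. A ratio at a single locus is therefore read by its percentile among all shared regions of that target. Percentiles were computed in reads per M only. By the deposited fold the genome median log2 ratios were 0.48 for GATA2 and 0.33 for RUNX1.

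The strongest GATA2 peak of the TAL1 window lay at chr1:47646777-47647326. Its summit had 625 reads in WT (counting interval 577.0 to 676.0) and 869 in Q592* (812.2 to 928.8). It ranked 237 of 38962 peaks by −log10 q in WT and 172 of 59009 in Q592*, so it was among the strongest of either list. Its log2 ratio was 0.50 (0.35 to 0.64), 1.41 times as many reads per M, at percentile 19.9 of shared GATA2 regions on that scale. The deposited fold enrichment over local background was 6.097 in WT and 13.07 in Q592*. This is a log2 ratio of 1.10, above the genome median of 0.48 by that measure. The larger ratio went with a local background, in multiples of the genome-wide one, of 17.0 in WT and 10.59 in Q592*.

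A second strong GATA2 peak of the TAL1 window, at chr1:47697931-47698312, lay 51.0 kb further along the chromosome. It had 353 reads in WT and 635 in Q592*, a log2 ratio of 0.87 (0.68 to 1.06) at percentile 56.8. Its deposited fold enrichment was 4.483 in WT and 13.772 in Q592*, a log2 ratio of 1.62, beside local background ratios of 13.03 and 7.28. Its rank was 1792 in the WT list and 515 in the Q592* list. The other shared GATA2 regions of this window were weaker. The one at chr1:47679099-47679384 had 183 and 300 reads (log2 0.73, interval 0.47 to 1.00), and the one at chr1:47704879-47705322 had 104 and 189 (log2 0.88, interval 0.54 to 1.23). At percentiles 42.0 and 58.6 their ratios were close to those of most GATA2 regions.

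Of the 4 TAL1 GATA2 regions called only in Q592*, the strongest was chr1:47677605-47677865 with 319 reads, whose −log10 q was 66.8. The region chr1:47690507-47690803 came next with 177 reads and a −log10 q of 34.21. The remaining pair, at 47.708 and 47.729 Mb, had 80 and 65 reads and lay near the limit of the list, with −log10 q of 2.7 and 3.2. The last of these was the only GATA2 peak of the TAL1 window at an SMC3 site, with summits 48 bp apart.

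RUNX1 peaks appeared at TAL1 only in the Q592* list, and 4 of the 5 coincided with the 4 shared GATA2 regions. The strongest, at chr1:47646885-47647162, had 238 reads (208.7 to 270.2), a fold enrichment of 3.643 and rank 2488 of 15582, and its summit was 9 bp from that of GATA2. The peak at 47.679 Mb had 119 reads with its summit 43 bp from GATA2, that at chr1:47697997-47698311 had 120 reads at 6 bp, and that at 47.705 Mb had 66 reads at 80 bp. The fifth RUNX1 peak, at chr1:47697456-47697616, had 92 reads and overlapped no GATA2 peak. The −log10 q of these peaks ran from 6.98 to 41.17, which placed them from the top 82.9% to the top 16.0% of the Q592* list. Their fold enrichments, 2.81 to 3.64, were all below the list median of 4.656. Overlap with GATA2 was also common over the genome, where 9.23% and 3.83% of Q592* regions had RUNX1 with GATA2, without and with SMC3. Regions with RUNX1 but no GATA2 made up 3.8% (RUNX1 alone) and 0.617% (with SMC3).

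A WT count of RUNX1 reads cannot be read at these places, because the lists hold values for called peaks only. The number that a call would have needed in WT was computed from the lowest −log10 p of the WT RUNX1 list, 5.05, with the local background taken from the WT GATA2 peak at the same place. The RUNX1 background ratio was 0.76 to 1.08 times that of GATA2 at the 11 overlaps of both factors within a line. Of these, 4 were the TAL1 places in Q592* and the 3 in WT were all at LMO2, with 0.99, 0.96 and 0.76, so the WT RUNX1 background at TAL1 itself was not measured. The background pool was 95.29 M reads for WT GATA2 and 86.72 M for WT RUNX1, but 77.98 M for both factors in Q592*. The overlaps in Q592* therefore do not show how the WT backgrounds of the factors compare. The site at 47.647 Mb would have needed 141 WT reads, or 1.346 per M, where Q592* had 2.23 per M, 1.66 times as many. The corresponding multiples were 1.48 at 47.679 Mb, 1.03 at 47.698 Mb and 1.32 at 47.705 Mb. At the 7917 shared RUNX1 regions of the genome the median ratio was 1.57. A WT background below that of GATA2 would lower the reads needed and raise these multiples. A background above it would do the reverse, and the smallest multiple was 1.03. The part of the calling limit in the absence of WT RUNX1 peaks was not tested.

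SMC3 at TAL1 was called at the same 5 places in both lines, and none coincided with a GATA2 peak shared by the lines. At 47.640 Mb the summits had 141 reads in WT and 150 in Q592*, at 47.641 Mb 294 and 270, and at 47.645 Mb 246 and 297. At 47.659 Mb they had 311 and 328, and at 47.729 Mb, 81.6 kb from the strongest GATA2 summit, 262 and 247. The log2 ratios in reads per M were 0.24, 0.02, 0.42, 0.22 and 0.06. Of these, 47.645 Mb reached percentile 86.4 of shared SMC3 regions, with an interval of 0.18 to 0.66. By −log10 q, 3 of the 5 WT peaks and 4 of the 5 Q592* peaks passed 100, where 9.13% and 8.75% of all SMC3 peaks did. The highest was 200.45 at 47.729 Mb in WT.

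At LMO2 the strongest GATA2 peak, at chr11:33966166-33966780, stood out by fold enrichment more than by reads. It had 320 reads in WT (285.9 to 357.1) and 566 in Q592* (520.3 to 614.6), with fold enrichments of 18.972 and 38.778. It ranked 185 in the WT list and 111 in the Q592* list, although the TAL1 peak at 47.647 Mb had more reads in each line. Its local background ratios were 2.64 and 2.15, far below those of the TAL1 peak. The log2 ratio between the lines was 0.84 (0.65 to 1.04), at percentile 54.2. RUNX1 was called there with 95 and 179 reads (log2 0.89, interval 0.53 to 1.25, percentile 80.2), its summit 9 bp from that of GATA2 in WT and 23 bp in Q592*. SMC3 had weak peaks of 59 and 50 reads at the same place.

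The strongest RUNX1 peaks of the windows lay at another LMO2 site, at −59.4 kb from that GATA2 summit. At chr11:33906844-33907341 RUNX1 had 162 reads in WT and 287 in Q592*, with fold enrichments of 8.584 and 18.649. The ranks were 208 of 9603 and 122 of 15582, so the peak was in the top 2.17% and 0.783% of its lists. Its log2 ratio was 0.80 (0.52 to 1.08), at percentile 69.4, and the −log10 q of 184.38 in Q592* was the only RUNX1 value above 100 in the windows. GATA2 at this site had 189 and 291 reads (log2 0.64, interval 0.38 to 0.91), and SMC3 had 50 and 40. The counting intervals of RUNX1 and GATA2 reads overlapped at this site in each line. These are reads from different ChIP targets, so the overlap does not compare how much of each factor was bound.

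The third site called in all 6 lists was chr11:33915155-33915652, at −51.1 kb from the strongest GATA2 summit. GATA2 had 84 reads in WT and 136 in Q592* (log2 0.72, interval 0.32 to 1.11), and RUNX1 had 80 and 118 (log2 0.53, interval 0.12 to 0.94). SMC3 had 43 and 35. At all 3 of these sites GATA2 and RUNX1 had more reads in Q592*, whereas the SMC3 log2 ratios were −0.17 at 33.907 Mb, −0.15 at 33.915 Mb and −0.09 at 33.966 Mb with intervals that included 0. Each line had 3 regions with all 3 targets, all in the LMO2 window, of 30 regions in WT and 35 in Q592*; the genome-wide shares were 5.78% and 3.83%. The SMC3 peaks at these sites were weak, and with a −log10 q of at least 10 the count was 0 in each line.

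The weaker LMO2 sites were mostly GATA2 sites. At 33.916 Mb GATA2 had 36 reads in WT and 93 in Q592*, a log2 ratio of 1.39 (0.84 to 1.95) that was the largest of the windows in reads per M and stood at percentile 96.2. By the deposited fold its log2 ratio was 0.94, below the 1.62 at 47.698 Mb and 1.10 at 47.647 Mb of TAL1, the 1.41 of the LYL1 peak and the 1.03 at 33.966 Mb. The shared regions at 33.904, 33.959 and 33.963 Mb had log2 ratios of 0.74, 0.65 and 0.57. For the last of these the log2 ratio of the deposited fold was −0.31, beside a local background ratio of 2.83 in WT and 5.07 in Q592*. GATA2 at 33.993 Mb had 33 and 34 reads and was the only shared GATA2 region whose interval, −0.63 to 0.76, included 0. The 6 GATA2 regions called only in Q592* had 37 to 92 reads, and the strongest, chr11:33954393-33954768, also overlapped the 1 RUNX1 peak of LMO2 called only in that list, of 65 reads.

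The strong SMC3 peaks of LMO2 lay apart from the 3 sites called in all 6 lists, where SMC3 had at most 59 reads. The strongest were at 33.880 Mb (174 reads in WT and 185 in Q592*), 33.993 Mb (207 and 203), 34.010 Mb (169 and 152) and 34.019 Mb (133 and 156). Their log2 ratios were 0.24, 0.12, −0.01 and 0.38, and only the last had an interval, 0.04 to 0.71, without 0. The site at 33.993 Mb also had weak GATA2 peaks. In Q592* they overlapped the SMC3 peak, with the strongest summits 15 bp apart. In WT the GATA2 and SMC3 peaks there did not overlap, with summits 523 bp apart. A pair of weaker SMC3 sites at 33.851 and 33.857 Mb had 83 and 47 reads in WT and 78 and 52 in Q592*. The 5 SMC3 peaks called only in WT were weak, with 25 to 55 reads. Of these, 3 lay at GATA2 peaks of both lines (33.904, 33.916 and 33.963 Mb) and the others at 33.941 and 33.952 Mb had no GATA2 or RUNX1 peak. The strongest of the 5, at chr11:33963269-33963542, had a −log10 q of 12.32. The share of all SMC3 regions called only in WT that lie at GATA2 peaks was not computed, so 3 of 5 is not read as particular to LMO2.

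LYL1 had a single GATA2 peak, at chr19:13213515-13213820, and it showed the largest ratio among the leading GATA2 peaks of the 3 windows. It had 167 reads in WT (142.6 to 194.3) and 372 in Q592* (335.2 to 411.8). The log2 ratio was 1.18 (0.91 to 1.44), or 2.26-fold, at percentile 86.8 of shared GATA2 regions. Its rank was 8714 in the WT list and 3152 in the Q592* list, and its fold enrichment was 3.239 in WT and 8.585 in Q592*. RUNX1 had no peak in the LYL1 window in either line.

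SMC3 at LYL1 lay close to this GATA2 peak without overlapping it. The nearest shared SMC3 region, at chr19:13215367-13215653 and 1.8 kb away, had 175 reads in WT and 130 in Q592*, a log2 ratio of −0.28 (−0.61 to 0.05) at percentile 7.19. The strongest, at chr19:13204534-13204972, had 193 and 195 reads, and that at 13.193 Mb had 87 and 77. A peak at chr19:13208837-13208969 was called only in WT, with 71 reads and a −log10 q of 13.49, the highest among the SMC3 peaks of the windows called in 1 line. A peak at 13.212 Mb was called only in Q592*, with 54 reads and a −log10 q of 2.98.

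**Figure D2:**
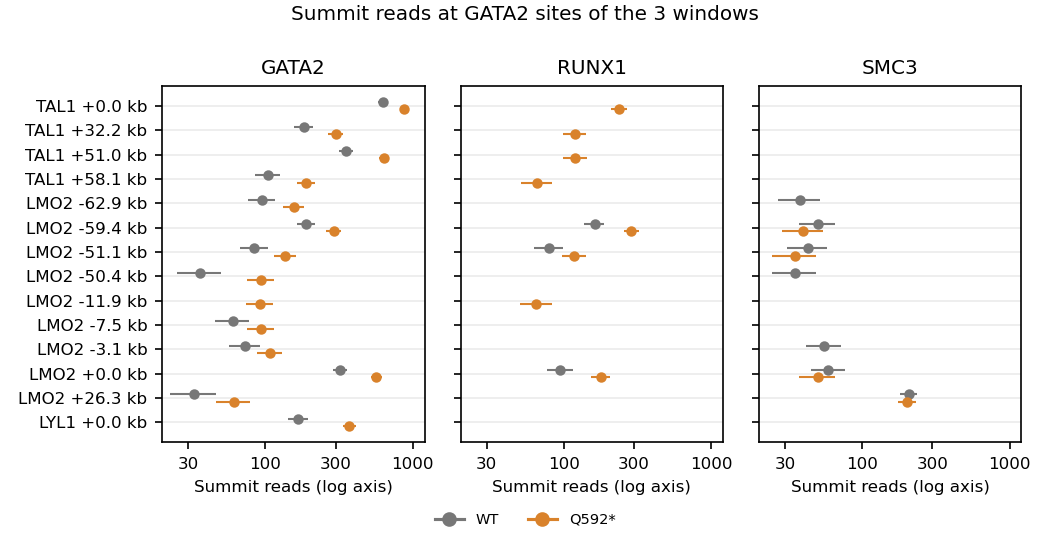
Summit reads of GATA2, RUNX1 and SMC3 (log axis, WT grey and Q592* orange, bars for the 95% counting interval) at sites with a Q592* GATA2 peak and either a WT GATA2 or a Q592* RUNX1 peak, labelled by window and by kb from its strongest GATA2 summit. The strongest peak of each list is drawn, which at +26.3 kb of LMO2 is 33 reads in WT and the peak called only in Q592*, of 61 reads; the TAL1 sites have RUNX1 points in Q592* alone, from 66 to 238 reads.

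Over the 3 windows, all 13 shared GATA2 regions and all 3 shared RUNX1 regions had more reads per M in Q592*, although 2 of the 13 were lower by the deposited fold and 1 over the genome-wide background. The member median log2 ratio was 0.73 for GATA2 (range 0.06 to 1.39), beside 0.81 over the genome, and 5 of 13 members lay above that genome median. For RUNX1 it was 0.80 (0.53 to 0.89), beside 0.65, with 2 of 3 above. By the deposited fold the GATA2 and RUNX1 member medians were 0.86 and 0.72, beside 0.48 and 0.33 over the genome. For SMC3 11 of 17 shared regions were higher and 6 lower in reads per M, where 67.7% were higher over the genome, and the member median was 0.06 (−0.28 to 0.42), beside 0.12. The SMC3 direction depended on the scale: as pileup over the genome-wide background, 3 of the 17 were higher and 14 lower, and the member median was −0.20, beside −0.14 over the genome. By the deposited fold 10 were higher and 7 lower, and the SMC3 member median was 0.12, beside −0.10 over the genome. Intervals lay above 0 for 12 of 13 GATA2, 3 of 3 RUNX1 and 3 of 17 SMC3 regions in reads per M, and below 0 for none of the 33. The matching shares of intervals over the genome were not computed. Over the genome-wide background the SMC3 log2 ratios are lower by 0.26. On that scale the 3 SMC3 intervals would include 0, and that at 13.215 Mb of LYL1 (−0.61 to 0.05 in reads per M) would lie below 0.

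**Figure D3:**
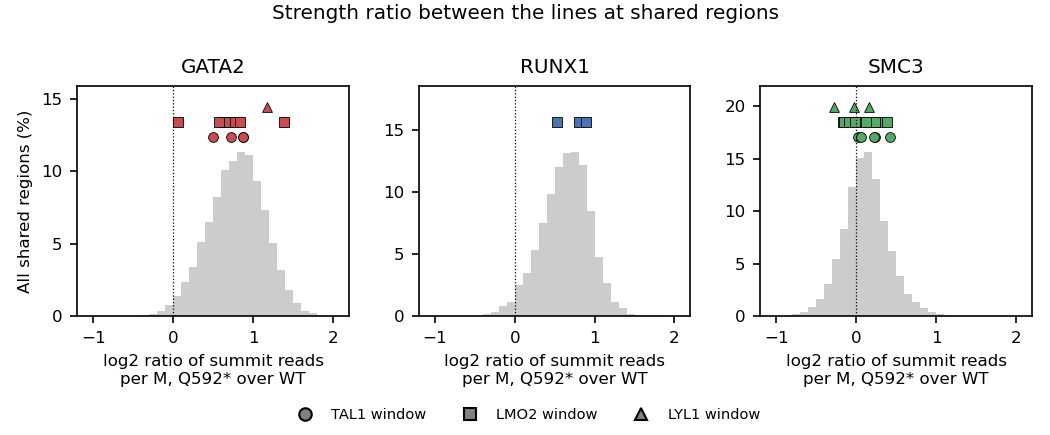
Log2 ratio of summit reads per M, Q592* over WT: grey bars give the percentage of all shared regions of a target, and the markers above them are the shared regions of the TAL1 (circles), LMO2 (squares) and LYL1 (triangles) windows, at heights without meaning. The 13 GATA2 markers run from 0.06 to 1.39 around the genome median of 0.81, and the 17 SMC3 markers from −0.28 to 0.42, on either side of the dotted line at 0.

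Peaks with a −log10 q of at least 100 made up 2 of 13 WT and 5 of 23 Q592* GATA2 peaks of the windows, beside 4.36% and 9.25% of the lists. For RUNX1 they were 0 of 3 and 1 of 9, beside 0.843% and 3.68%. For SMC3 they were 6 of 23 and 6 of 18, beside 9.13% and 8.75%. A −log10 q grows with depth and background pool, so these shares are compared only within a list.

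Combinations of targets within a line are counted next, over the 30 WT and 35 Q592* regions. GATA2 with RUNX1 but without SMC3 was found at 0 WT regions and at 5 Q592* regions, 4 in TAL1 and 1 in LMO2 (4.04% and 9.23% genome-wide). With only peaks of a −log10 q of at least 10 these counts were 3 and 7, since the weak SMC3 peaks at LMO2 then drop out. GATA2 with SMC3 but without RUNX1 was found at 3 WT and 2 Q592* regions (8.28% and 3.94%). SMC3 alone made up 17 of 30 WT and 13 of 35 Q592* regions (43.1% and 28.7%), and GATA2 alone 7 and 11 (35.5% and 49.9%). RUNX1 alone was called at 0 WT regions and 1 Q592* region (2.54% and 3.8%), and RUNX1 with SMC3 but without GATA2 at 0 in each line (0.732% and 0.617%). In WT, all 3 RUNX1 peaks of the windows lay on a GATA2 peak, all at LMO2. Over the genome, too, WT regions with RUNX1 more often had GATA2 (5.78% with SMC3 and 4.04% without) than not (2.54% and 0.732%).

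The local background differed strongly between the loci. At TAL1 GATA2 peaks its median was 10.58 times the genome-wide background in WT and 7.28 times in Q592*, where the list medians were 1.51 and 1.76. Only 0.447% of WT GATA2 peaks and 0.876% of Q592* GATA2 peaks had a ratio that high. The LYL1 GATA2 peak stood at 8.5 and 6.84. At LMO2 the medians were lower, 2.42 and 2.30, and 20.4% of the WT and 30.8% of the Q592* list had a ratio as high. Over all members the ratio ran from 1.17 to 17.0. A fold enrichment divides by this background and a call needs more reads where it is high; its part in the differences between the lines was not tested.

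**Figure D4:**
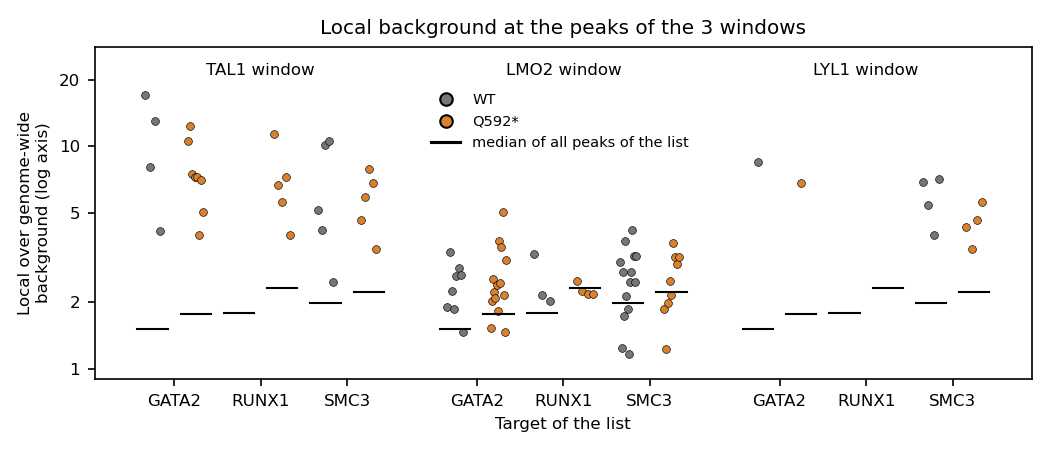
Local over genome-wide background at each member peak, by window and target, on a log axis; grey points are WT, orange points Q592*, and bars are the median of all peaks of the list. TAL1 points reach 17.0, and the highest LMO2 point is 5.07, a Q592* GATA2 peak.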

How the data were processed

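Per the submitters' processing notes, the authors used Bowtie2, Picard, MACS2 and hg19; their versions and parameters: not given in the sources used here. They deposited 1 pooled narrowPeak list per line and target, with "merge" in the peak names. Each peak has a deposited score (not used), a deposited fold enrichment (a ratio over local background), a deposited −log10 p, a deposited −log10 q, and a deposited summit offset.

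MACS2 computes fold and p from a whole number of reads and a Poisson background. Reads at each summit and the local background were recovered from these values. All 6 lists gave whole reads for 100% of peaks, to a tolerance of 0.002 in −log10 p. The share was 1.71% or less with the worth of a read set wrong by 3%. In simulated lists at least 99.79% of summits came back exact. ChIP totals assume an effective genome of 2700000000 bp and fragments as long as the narrowest peak. They were 107.53 (WT GATA2), 105.97 (Q592* GATA2), 104.79 (WT RUNX1), 106.74 (Q592* RUNX1), 103.5 (WT SMC3) and 93.45 M (Q592* SMC3). The lowest −log10 q was 2.002 to 2.051, so weaker binding is not seen. Reads are not independent molecules, so intervals cover counting error only.

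Peaks overlapping by at least 1 bp were joined. With 1 list per group no test was made. The members, motif lists and rules were chosen with earlier results of these data known. Sites are named by this rule: the highest −log10 q per window and target, every region with all 3 targets, every region with a −log10 q of at least 100, and the strongest region called in 1 line. Other sites are named to show their values, and were chosen after these were seen. Counts of annotated partner genes and motifs at the sites, which need hg19 annotation or sequence, were not run. Alternatives were lists of equal length, a −log10 q of at least 10, summits within 200 bp, reciprocal overlap of 50%, any overlap with the window, the deposited fold and the sum over a region's peaks. Pileup over the genome-wide background was added after seeing the data. Software was matplotlib 3.10.9, numpy 2.4.6, scipy 1.17.1 and pandas 2.3.3 under Python 3.11.15.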

Additional observations from a re-analysis of the deposited data

How the results depend on the processing

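No paired analysis was possible because each line and target has 1 pooled list and no value per library; for the same reason no library could be left out. Of 118 alternative counts, 101 were within 1.5 times the reported count. Some of these could not move: equal lengths shorten only the longer list of a target. A peak count of 0 also cannot rise when peaks are left out. With a −log10 q of at least 10, GATA2 regions called only in Q592* were 4, SMC3 regions called only in WT 2, WT SMC3 peaks at LMO2 7 and Q592* GATA2 peaks at LMO2 8. At that limit, regions with all 3 targets were 0 in WT and 0 in Q592*, regions with GATA2 and RUNX1 alone 3 in WT and 7 in Q592*, and regions with GATA2 and SMC3 alone 1 in WT and 0 in Q592*. With equal list lengths, GATA2 regions called only in Q592* were 3 and only in WT 1, SMC3 regions called only in Q592* 2 and only in WT 3. Q592* RUNX1 peaks at TAL1 were then 3 and Q592* GATA2 peaks at LMO2 8. With a reciprocal overlap of 50%, GATA2 regions called only in WT were 1 and SMC3 regions called only in Q592* 2. Over the genome-wide background, an alternative chosen after seeing the data, the SMC3 median log2 ratio was −0.20 and not 0.06. This scale differs from reads per M by the fragment length assumed for each list, which shifts the SMC3 log2 ratios by 0.26, those of GATA2 by 0.07 and those of RUNX1 by 0.04. Of 99 ratios of single regions under other scales, 84 stayed within their counting interval. Of the 99, 33 were sums over a region's peaks, which could not differ because every shared region held 1 peak per line. By the deposited fold 22 of 33 stayed within the interval. Over the genome-wide background, the fixed shift per target given above, 29 of 33 did. The sign changed for 7 of 33 regions by the deposited fold (2 GATA2, 5 SMC3) and for 9 of 33 over the genome-wide background (1 GATA2, 8 SMC3). Among the regions whose interval lay above 0 in reads per M, the sign changed at GATA2 33.963 Mb of LMO2, −0.31 by the deposited fold, and at SMC3 47.659 Mb of TAL1, −0.04 over the genome-wide background. Weak peaks rest on few reads: 25 reads for the weakest SMC3 peak at LMO2 have a counting interval of 16.2 to 36.9.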

Other observations

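The local background was also read around the windows. In steps of 500 kb over 5 Mb on either side of the TAL1 window, the median ratio of local to genome-wide background at peaks of all 3 targets was 1.0 to 6.14 in WT and 2.41 to 7.26 in Q592*, where the step with TAL1 had 4.19 and 4.92. Around LYL1 the steps ran from 2.08 to 8.9 in WT and from 1.98 to 7.39 in Q592*, and the step with LYL1 had 6.92 and 5.33. Around LMO2 they ran from 1.0 to 1.82 and from 1.0 to 2.11, and the step with LMO2 had 2.15 and 2.18. Steps with fewer than 5 peaks were left out.

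The nearest peaks outside the windows were mostly weak. Those before the windows lay 4.8 kb (TAL1), 3.8 kb (LMO2) and 1.7 kb (LYL1) from the edge, with deposited −log10 q of 7.87, 4.76 and 10.51, all 3 in the Q592* GATA2 list. Those after the windows lay 39.5, 8.8 and 13.5 kb from the edge. Members nearest to the start edge lay 9.7, 1.2 and 3.4 kb inside it, and those nearest to the end edge 21.3, 31.3 and 14.5 kb inside it; all 6 were SMC3 peaks.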
